A study of Mus musculus with 14 samples.

Results

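The GIMAP family, the GTPases of immunity-associated proteins, was examined in CD4+ T-cells of mice with a mutant Roquin gene and of wild-type mice. Its 8 mouse genes Gimap1, Gimap3, Gimap4, Gimap5, Gimap6, Gimap7, Gimap8 and Gimap9 were found by probes whose gene name on the array equals the member. They had 12 of the 56605 probes, with 2 probes each for 4 genes (Gimap4, Gimap5, Gimap8 and Gimap9) and 1 probe each for the other 4. A probe for the antisense transcript Gimap1os was not counted as a member.

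GIMAP proteins are GTP-binding proteins that are most abundant in lymphocytes, and many sit on membranes inside the cell. They are known mainly for keeping lymphocytes alive: rats and mice that lack a working Gimap5 lose most peripheral T-cells. Their genes lie side by side in a single cluster on mouse chromosome 6, and their levels are known to be high in resting T-cells.

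The arrays were 14 one-colour arrays of total RNA from CD4+ T-cells, 7 from Roquin san/+ mice and 7 from wild-type mice, lettered A to G in each genotype. Roquin san/+ mice carry the sanroque allele of Roquin on one copy of the gene and are used as a model of follicular helper T-cell lymphoma. Roquin is an RNA-binding protein that shortens the life of its target mRNAs. No treatment is named for either genotype, and the strain background and age of these mice are not given in the sources used here. Whether each array came from a separate mouse is not stated in the labels, so the errors and p-values measure the spread between these arrays.

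One array of each genotype, Roquin san/+ G and wild-type E, had been read 2 rows of the grid away from its probe names. Their intensities correlated at 0.0218 and 0.0220 with the median array as deposited and at 0.990 and 0.989 after the move, which was applied throughout. The 12 well-placed arrays had 53.5 to 75.5% of probes well above background, with the highest share on Roquin san/+ replicate F. The displaced arrays had 21.9 and 19.4%, and the move does not repair those calls. Roquin san/+ replicate C was by far the dimmest array, with a 75th percentile of signal of 300 where all others had 1580 or more. It also had the lowest correlation with the median array among the well-placed arrays, at 0.918 where the rest had 0.977 or more. Genes that define T-cells were bright, with all 10 genes of a T-cell list tested, including Cd3e and Cd4, and a mean level of 2.06 to 3.64 on every array. Roquin san/+ replicate F stood apart through other cell types. Its 8 tested B-cell genes had a mean level of 1.68, where the remaining arrays of its genotype had -4.43 to -1.34, and its 9 myeloid genes had 2.93 against -0.97 to 0.33. Among the wild-type arrays the mean B-cell level was highest on replicate B, at -0.20, where the median wild-type array had -3.46. Levels here and below are log2 signal minus the 75th percentile of the same array, so 0 is the level of a fairly bright probe. Probes bind with different strength, so no gene's level was ranked against that of another gene.

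Because the GIMAP genes are copies of one ancestral gene, the probes were first compared with each other. The longest run of bases shared by probes of different GIMAP genes was 6 to 9 bases of 60. The longest run shared with any other probe on the array was 13 to 17 bases. Shared runs were found between probes only, and no transcript sequence was searched. The Gimap4 and Gimap9 probes below are shown because they cover an alike stretch of the family. Capitals mark the 27 of 45 aligned bases (60%) that were identical, and the remaining bases set the genes apart.
Gimap4 (A_55_P1976387, chr6:48640752-48640811, plus strand, mm9): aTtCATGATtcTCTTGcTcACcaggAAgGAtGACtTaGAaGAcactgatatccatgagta
Gimap9 (A_51_P377948, chr6:48627839-48627898, plus strand, mm9): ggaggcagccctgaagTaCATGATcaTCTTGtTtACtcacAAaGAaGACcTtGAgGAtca

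The probe of Gimap7 is shown because Gimap7 had the largest difference between the genotypes among the 8 genes on all 14 arrays. It is printed in lower case throughout, as no part of it is singled out.
Gimap7 (A_51_P448147, chr6:48674271-48674330, plus strand, mm9): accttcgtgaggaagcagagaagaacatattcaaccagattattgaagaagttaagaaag
Coordinates are those the scanner files give. Exon and UTR positions of the probes were not determined, since no annotation of that build was used here.

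All 12 GIMAP probes were well above background on every one of the 12 well-placed arrays, and none was saturated. They therefore passed the filter irrespective of genotype. On the displaced wild-type replicate E the probes of Gimap7 and one of the Gimap8 probes (A_55_P2483326) were not called above background. The printed Gimap9 probe has no value on either displaced array, because its spot fell off the readable grid. A gene with 2 probes is represented below by the brighter one.

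The comparison of the genotypes asks whether the mutant Roquin allele goes with another level of GIMAP mRNA in CD4+ T-cells. All 8 genes had a higher mean in Roquin san/+ than in wild-type arrays, by 0.02 for Gimap3 to 0.44 for Gimap7 on the log2 scale. None of the 8 passed limma at an adjusted p of 0.05, and none had an unadjusted p under 0.05. Across the whole array 0% of the 33120 tested probes passed at the adjusted threshold. At an unadjusted p under 0.05 the share was 3.06%, or 1013 probes. The median difference of the 8 genes was 0.17, against 0.05 over all tested probes, of which 56% lay above 0. That the 8 differences share a sign rests on the scaling and on single arrays. The mean was higher for 4 of 8 genes when the 75th percentile was taken over all probes, and for 6 of 8 relative to the median probe. Without wild-type replicate C it was higher for 4 of 8, and the median difference of the 8 was 0.04.

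Gimap7, a small GTPase of the family that works as a dimer, had the largest difference over all 14 arrays. Its levels ran from -1.60 through a median of -0.93 to -0.06 in Roquin san/+ arrays and from -1.68 through -1.23 to -0.96 in wild-type arrays. The Roquin san/+ arrays spread further upward, with 6 of 7 above the wild-type median, yet the genotypes overlapped. The difference was 0.44 (95% interval -0.03 to 0.91), or 1.36-fold, with an unadjusted p of 0.0642 and an adjusted p of 0.883 by limma. The highest Roquin san/+ value and the lowest wild-type value were both from the displaced arrays, replicates G and E. Without these arrays the difference was 0.24 (unadjusted p = 0.244 by limma), smaller than the 0.38 of Gimap8. Gimap8 was also ahead with quantile scaling (0.43 against 0.35) and with the authors' log2 values (0.47 against 0.28), so the order of these genes was not settled.

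Gimap8, the longest member, with several GTP-binding domains in one protein, came next. Its brighter probe (A_55_P2876457) ran from 0.41 through 0.76 to 1.32 in Roquin san/+ arrays and from -0.59 through 0.49 to 0.86 in wild-type arrays. Wild-type replicate C was lowest by far, and Roquin san/+ replicate C was highest. The difference was 0.41 (95% interval -0.09 to 0.91), with an adjusted p of 0.883 by limma. The other Gimap8 probe had a difference of 0.10, so the size depended on the probe. Without wild-type replicate C the difference on the brighter probe was 0.25.

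Gimap5 is the member whose loss in rats and mice leads to a lack of T-cells. In Roquin san/+ arrays its brighter probe (A_51_P176365) ran from 0.51 through 1.03 to 1.48, and in wild-type arrays from -0.52 through 0.80 to 1.39. Only wild-type replicate C lay below 0, and the other 13 arrays overlapped from 0.51 upward. The difference was 0.32 (95% interval -0.26 to 0.90), with an adjusted p of 0.883 by limma, and 0.16 on the other probe. Without wild-type replicate C it was 0.11. The 2 Gimap5 probes followed each other only loosely over the 14 arrays, at r = 0.29.

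Gimap3, the closest relative of Gimap5 in the mouse, had the smallest difference. Its levels ran from 3.88 through 4.73 to 5.004 in Roquin san/+ arrays and from 3.92 through 4.62 to 4.85 in wild-type arrays. Both groups covered nearly the same range, with replicates F and C low in Roquin san/+ and replicate C low in wild-type. The difference was 0.02 (95% interval -0.42 to 0.46), with an adjusted p of 0.989 by limma.

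Gimap4, a member linked to T-cell death after stimulation, ran from 1.98 through 3.20 to 3.45 in Roquin san/+ arrays on its brighter probe (A_55_P2147831). The wild-type arrays ran from 1.72 through 2.59 to 3.10. Replicate C was the lowest array of either genotype, and the upper arrays overlapped. The difference was 0.26 (95% interval -0.35 to 0.87), with an adjusted p of 0.887 by limma. On the printed Gimap4 probe it was 0.03, and that probe correlated with the brighter one at r = 0.46 over 14 arrays.

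Gimap1 is needed for the survival of mature T-cells and B-cells in mice. It ran from 1.63 through 2.43 to 2.62 in Roquin san/+ arrays and from 1.27 through 2.34 to 2.70 in wild-type arrays. Replicate C was again lowest in both genotypes, and the other arrays overlapped. The difference was 0.07 (95% interval -0.43 to 0.56), with an adjusted p of 0.966 by limma.

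Gimap6 has been linked to autophagy through its binding to the ATG8-type protein Gabarapl2. It ran from 3.30 through 3.94 to 4.34 in Roquin san/+ arrays and from 3.27 through 3.83 to 4.17 in wild-type arrays. Replicate C was lowest and replicate E highest in both genotypes. The difference was 0.05 (95% interval -0.38 to 0.47), with an adjusted p of 0.971 by limma.

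Gimap9, one of the less studied members, ran from 1.94 through 2.39 to 2.56 in Roquin san/+ arrays and from 1.52 through 2.26 to 2.57 in wild-type arrays on its brighter probe (A_55_P2802747). Replicate F was the lowest Roquin san/+ array and replicate C the lowest wild-type array. The difference was 0.09 (95% interval -0.30 to 0.47), with an adjusted p of 0.937 by limma. The printed Gimap9 probe was the only one of the 12 with a lower mean in Roquin san/+ arrays, at -0.12 on 6 arrays per genotype. It correlated with the brighter probe at r = 0.72 over 12 arrays.

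**Figure D1:**
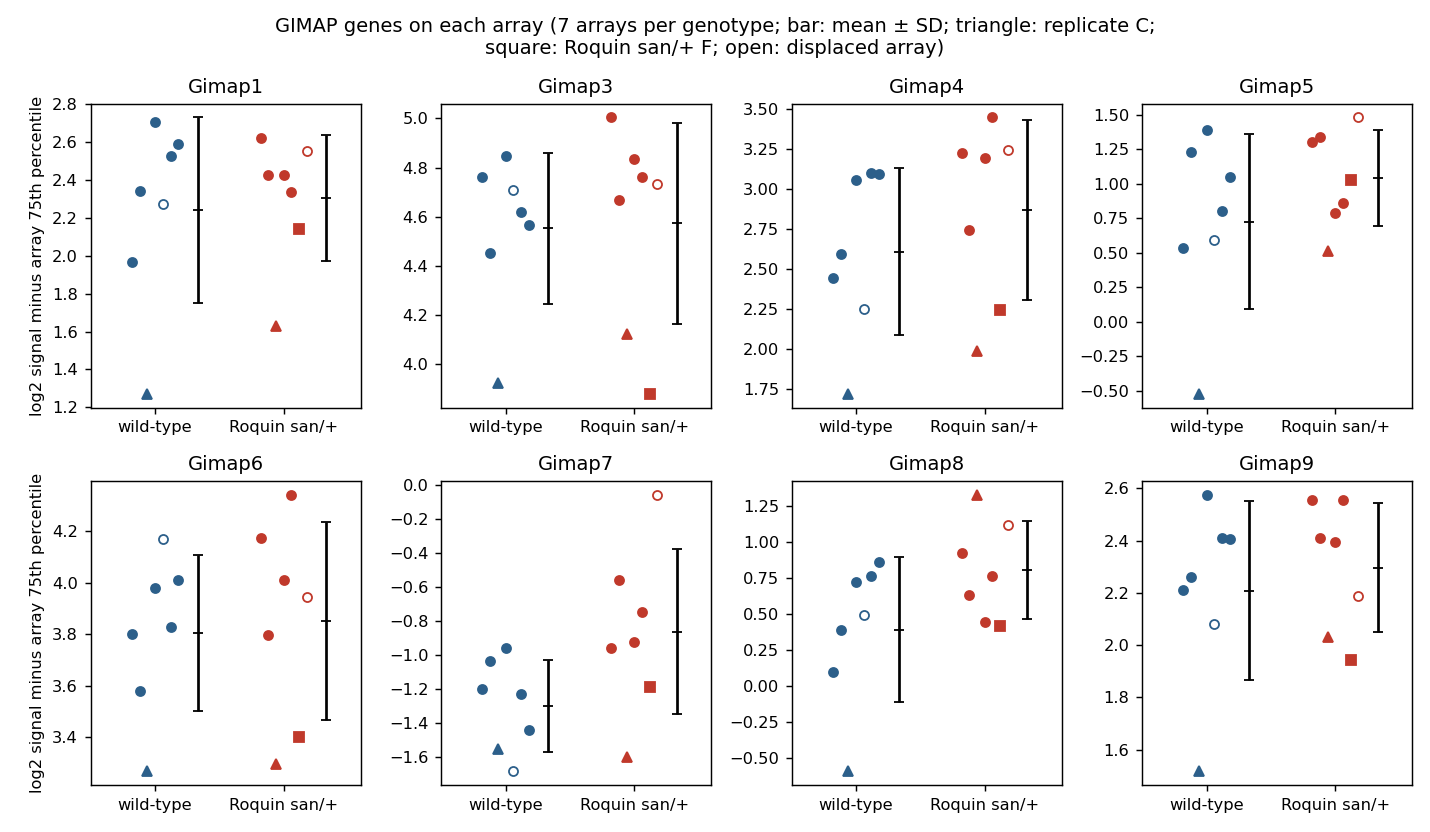
Each panel plots one GIMAP gene, with the log2 signal minus the 75th percentile of the array on the vertical axis (each panel has its own range) and 1 point per array, wild-type in blue and Roquin san/+ in red. Bars give the mean ± SD of 7 arrays, triangles mark replicate C, the square marks Roquin san/+ replicate F and open points mark the displaced arrays. The genotypes overlap in all 8 panels, and wild-type replicate C is the lowest wild-type point in 7 of them.

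The groups overlapped for all 12 probes. Every 95% interval lay between -0.62 and 0.91, and with slide as a block between -0.86 and 0.998, so each interval taken singly stopped short of a 2-fold change either way. The standard errors of the 8 differences had a median of 0.225, against 0.295 over all tested probes.

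**Figure D2:**
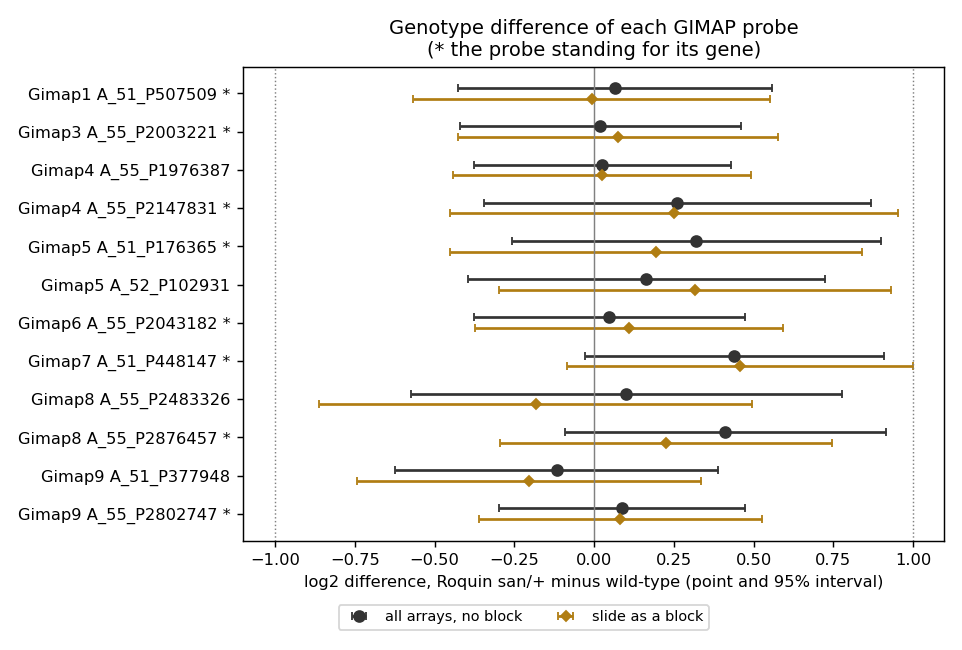
The horizontal axis gives the log2 difference, Roquin san/+ minus wild-type, of each of the 12 GIMAP probes, with its 95% interval from limma, and an asterisk marks the probe that represents its gene. Black points use all arrays and brown diamonds add slide as a block. All black intervals and all brown intervals include 0 and end short of the dotted lines, which stand for a 2-fold change.

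The spread between arrays of one genotype was wider than the difference between the genotypes. For each array the deviation of the 8 genes from their own means was averaged. It had a mean of 0.10 ± 0.30 (SD, n = 7) in Roquin san/+ and of -0.10 ± 0.38 (SD, n = 7) in wild-type arrays. Wild-type replicate C was lowest at -0.88, with all 8 genes below their own mean and 7 of them the lowest of the group. Roquin san/+ replicate C followed at -0.34 and Roquin san/+ replicate F at -0.27. The other 11 arrays lay between -0.18 and 0.39, with Roquin san/+ replicate G highest.

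The likeness of each member to the mean of the other 7 was described by a correlation over the 14 arrays. It was highest for Gimap1 (Pearson r = 0.90, Spearman rank correlation = 0.81), followed by Gimap4 (0.89 and 0.88) and Gimap9 (0.89 and 0.75). It was lowest for Gimap7 (0.59 and 0.63) and Gimap8 (0.56 and 0.49). Without the 2 arrays farthest from the median, wild-type replicate C and Roquin san/+ replicate C, r ranged from 0.48 for Gimap6 to 0.83 for Gimap4. Gimap8 was then at 0.76. On Roquin san/+ replicate C it had been the highest of its group, where 5 other members were the lowest. The genes of an array share its scaling and whatever RNA of other cells it held.

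Genes of the T-cell itself were low on the same arrays. The mean deviation of the 10 T-cell genes, such as Cd3e, Cd4 and Lck, was lowest on Roquin san/+ replicate C at -1.12, Roquin san/+ replicate F at -1.03 and wild-type replicate C at -0.72, and lay between 0.01 and 0.47 on the others. In bulk samples fewer T-cells and less GIMAP mRNA per T-cell cannot be told apart. On replicate F the GIMAP genes lay below the median of the other Roquin san/+ arrays by less than the T-cell genes, with median gaps of -0.44 and -1.35. On the same array the gap was 5.41 for B-cell, 3.51 for myeloid, 3.34 for NK-cell and 5.79 for erythroid genes, and 3.72 for the CD8 T-cell gene Cd8b1. Wild-type replicate C, the lowest array for the GIMAP genes, also had more signal from other cells. Its median gap to the other wild-type arrays was 3.01 for erythroid, 1.77 for myeloid and 1.001 for NK-cell genes, -0.01 for B-cell genes and -1.05 for T-cell genes. On Roquin san/+ replicate C the gap was 2.21 for erythroid, -0.12 for myeloid, 0.30 for B-cell and -1.06 for T-cell genes. By this median gap its T-cell genes were less low than those of replicate F. Single genes lay far from these medians on this dim array, with Cd247 at -4.43, Itgam at 4.70 and Cd22 at 3.72. The part of other cells in the GIMAP levels was not tested. Endothelial cells are another place where GIMAP genes are known to be active. Of the 6 endothelial genes only 2 passed the filter, and the defining genes Cdh5, Kdr, Tek and Tie1 did not. The 2 tested genes, Vwf and Egfl7, lay 2.19 and 2.27 above the median of the other wild-type arrays on wild-type replicate C, and 1.88 and 1.09 above that of the other Roquin san/+ arrays on Roquin san/+ replicate C. They disagreed on Roquin san/+ replicate F, with gaps of 2.79 for Vwf and -1.99 for Egfl7. Between the genotypes they had opposite signs too, at 0.34 for Vwf and -0.89 for Egfl7.

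**Figure D3:**
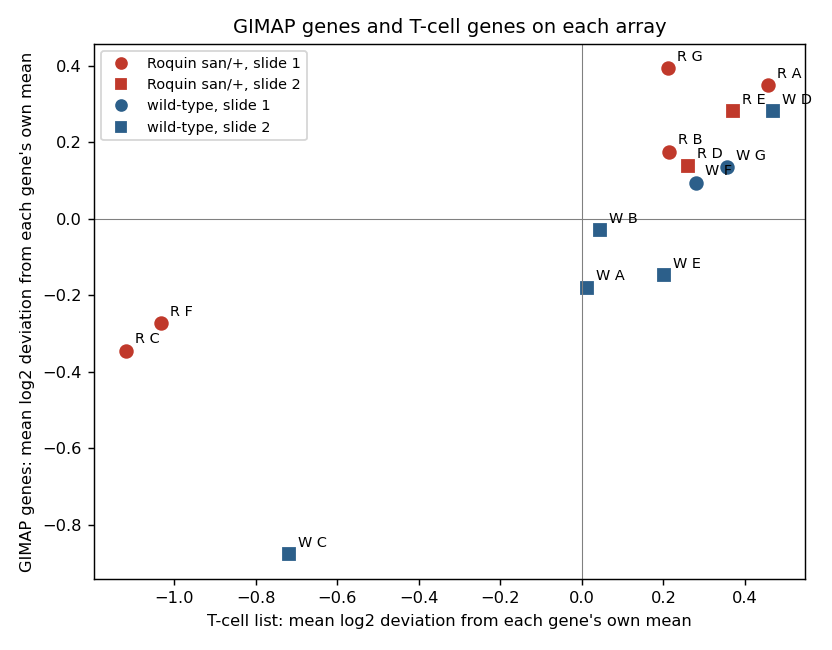
Each point is an array, placed by the mean log2 deviation of 10 T-cell genes from their own means (horizontal) and of the 8 GIMAP genes from theirs (vertical), with letters for genotype (R, Roquin san/+; W, wild-type) and replicate, colours for genotype and symbols for slide. Roquin san/+ replicates C and F and wild-type replicate C are lowest on both axes, and wild-type replicate C is the lowest for the GIMAP genes at -0.88.

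Between the genotypes the T-cell list did not share the direction of the GIMAP genes. None of the 10 T-cell genes had a higher mean in Roquin san/+ arrays, with a median difference of -0.13, and limma called none. Without Roquin san/+ replicate F the T-cell count became 7 of 10 higher and the median 0.02, and without Roquin san/+ replicate C 5 of 10 and -0.01. The GIMAP genes had a median difference of 0.23 without Roquin san/+ replicate F and 0.25 without Roquin san/+ replicate C, with 8 of 8 higher and 0 called each time. Of 8 genes that mark resting T-cells, among them Klf2 and S1pr1, 1 was higher in Roquin san/+ arrays, with a median difference of -0.25 and 0 called. Of 8 genes that mark activated T-cells, 7 were higher, with a median of 0.23 and 0 called. The largest differences were those of Pdcd1 (0.78), Icos (0.64) and Cd44 (0.38), and Mki67 was lower, at -0.21. Without replicate F the resting count stayed at 1 of 8 and the activated count was 6 of 8. Without Roquin san/+ replicate C the resting count was 3 of 8 (median -0.11) and the activated count 7 of 8 (0.31). Leaving out wild-type replicate C gave 0 of 10 T-cell genes higher (median -0.29) and 4 of 8 GIMAP genes (0.04). The resting count was then 0 of 8 (-0.34) and the activated count 6 of 8 (0.11). The B-cell, myeloid and NK-cell lists had the sign of the GIMAP genes and larger medians. The erythroid median had that sign but was smaller, and the endothelial median had the opposite sign. All 8 B-cell genes were higher in Roquin san/+ arrays (median 0.81), as were all 9 myeloid genes (0.89) and 4 of 5 NK-cell genes (0.66), and limma called none. Without Roquin san/+ replicate F these were 6 of 8 (0.19), 9 of 9 (0.43) and 3 of 5 (0.16). Of the erythroid genes 2 of 4 were higher on all arrays (median 0.12), and of the endothelial genes 1 of 2 (-0.27). With replicate F left out, both lists had 0 higher (medians -0.62 and -0.33). With wild-type replicate C left out they had 4 of 4 (0.67) and 1 of 2 (0.06) higher. Leaving out Roquin san/+ replicate C gave 2 of 4 (-0.12) and 1 of 2 (-0.49). The part of other cells in the GIMAP differences was not tested.

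Among all other named genes, 21489 were ranked by how closely they followed the mean GIMAP profile over the 14 arrays. The closest was the probe A_30_P01025368 for a transcript known only by its genome position, at r = 0.953. The next were Tmco4 (r = 0.950), Zfr2 (0.948), Trim21 (0.948), Abtb2 (0.948), Heca (0.947), Arhgef3 (0.946), Traf3ip2 (0.939), Abca2 (0.935) and Mast3 (0.931). Trim21 encodes a ubiquitin ligase that binds antibodies inside cells, Arhgef3 a guanine nucleotide exchange factor and Traf3ip2 an adaptor of the interleukin-17 receptor. Of these 10, 7 were again among the closest 10 without Roquin san/+ replicate F, where Phf11a, Pou6f1 and Fmnl3 took the remaining places. The 10 T-cell genes had a median r of 0.74, from 0.49 to 0.86, and all ranked genes a median of -0.09. These are descriptions over arrays that share their scaling, and the low arrays weigh heavily in them.

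The genotypes were spread unequally over the slides. Slide 1 held 5 arrays of Roquin san/+ cells beside 2 of wild-type cells, and slide 2 held 2 beside 5. With slide as a block 7 of 8 genes were higher in Roquin san/+ arrays, and Gimap1 was at -0.01. On slide 1 alone 3 of 8 genes were higher, and on slide 2 alone 8 of 8. Gimap4 differed most between the slides, at -0.41 (95% interval -1.38 to 0.56) on slide 1 and 0.91 (95% interval 0.04 to 1.78) on slide 2. The interaction of genotype and slide for Gimap4 was 1.32, with an unadjusted p of 0.0362 and an adjusted p of 0.433 by limma, so it did not pass. Across the array 11.5% of probes had an unadjusted interaction p under 0.05 and 0 of 33120 passed after adjustment. Gimap7 had nearly the same difference in every case, with wide intervals. It was 0.46 (95% interval -0.54 to 1.47) on slide 1, 0.45 (-0.23 to 1.14) on slide 2 and 0.46 (-0.08 to 0.998) with the block. Each slide held 1 displaced array with an extreme Gimap7 value, Roquin san/+ G on slide 1 and wild-type E on slide 2. Without both displaced arrays the difference was 0.24. Wild-type replicate C was on slide 2, and both Roquin san/+ replicates C and F were on slide 1.

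**Figure D4:**
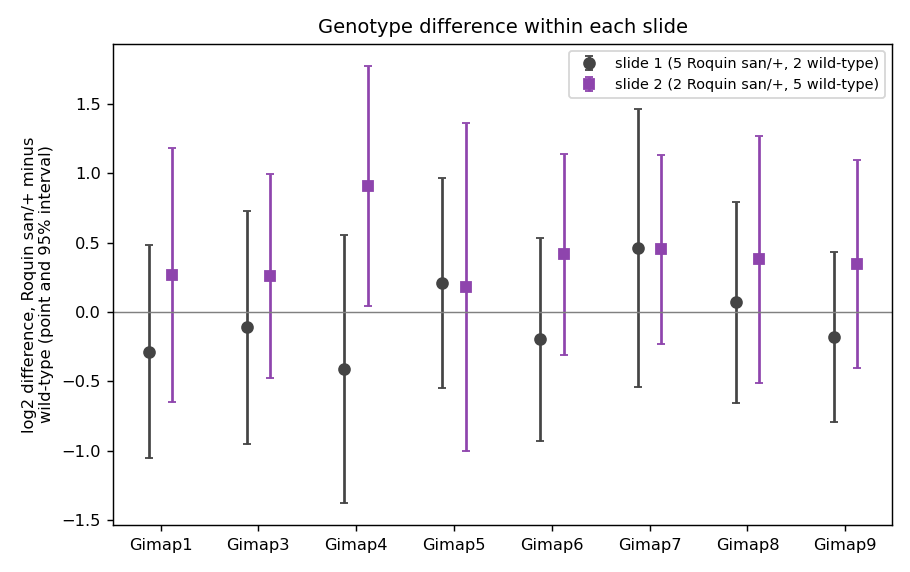
The vertical axis gives the log2 difference, Roquin san/+ minus wild-type, of each GIMAP gene with its 95% interval from limma, on slide 1 alone (black circles, 5 Roquin san/+ and 2 wild-type arrays) and on slide 2 alone (purple squares, 2 and 5 arrays). Points lie above 0 for 3 of 8 genes on slide 1 and for 8 of 8 on slide 2, and Gimap4 on slide 2 is the only gene whose interval leaves out 0.

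GIMAP proteins are known to bind members of the BCL2 family, which govern cell death, and proteins of the ATG8 family, which build autophagosomes, and Gimap5 has been tied to the kinase GSK3 beta. The genes of 12 such partners were all tested. Of these, 5 had a higher mean in Roquin san/+ arrays and 7 a lower one, with a median difference of -0.04, and limma called 0. Single arrays changed this count. Without Roquin san/+ replicate F, 2 of 12 were higher and the median was -0.06, and without Roquin san/+ replicate C 8 of 12 and 0.09. The smallest p belonged to Bcl2l11, which encodes the death-promoting protein Bim, with a difference of -0.46 (95% interval -1.08 to 0.16, unadjusted p = 0.134 by limma). It lay 1.92 below the other Roquin san/+ arrays on the dim replicate C, and without that array the difference was -0.19. Map1lc3a, an ATG8-type gene, followed with 0.23 (unadjusted p = 0.322 by limma), and Bak1, which opens the outer membrane of mitochondria, with -0.23 (unadjusted p = 0.326 by limma). Without replicate F the Map1lc3a difference was 0.10, and without Roquin san/+ replicate C that of Bak1 was -0.11. Gabarapl2, the partner of Gimap6, differed by 0.06, and the survival genes Bcl2 and Mcl1 by 0.17 and 0.03. None of these signs was stable: Gabarapl2 was at -0.01 and Mcl1 at -0.05 without Roquin san/+ replicate F, and Bcl2 at -0.02 without wild-type replicate C.

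In the RefSeq annotation (GRCm38.p6), where all 8 members were matched by symbol, the order along chromosome 6 is Gimap8, Gimap9, Gimap4, Gimap6, Gimap7, Gimap1, Gimap5 and Gimap3. Lrrc61, Rarres2, Repin1 and Zfp775 lie before the cluster, and Tmem176b, Tmem176a and Aoc1 after it. The larger differences did not fall at one end of the cluster: Gimap8, Gimap7 and Gimap5 lie at its start, middle and far side, and Gimap3 at its end had the smallest. Of the neighbours on the array, 4 of 7 were tested. All 4 had a higher mean in Roquin san/+ arrays, with a median difference of 0.38, and limma called 0.
Tmem176a and Tmem176b, a pair of related membrane protein genes, had differences of 0.66 (95% interval -0.04 to 1.36, unadjusted p = 0.0620 by limma) and 0.59 (unadjusted p = 0.100 by limma). Both were highest in their genotype on Roquin san/+ replicate F, where myeloid genes were highest too. Without that array the differences were 0.54 and 0.46. On wild-type replicate C, which had the highest mean myeloid level of its genotype, they lay 0.93 and 1.18 above the median of the other wild-type arrays. Without wild-type replicate C the differences were 0.80 and 0.74 (unadjusted p = 0.0295 and 0.0433 by limma). With that array left out limma again called 0 neighbour genes. The part of myeloid cells in these differences was not tested. Lrrc61, a gene of a leucine-rich repeat protein, differed by 0.18 (unadjusted p = 0.386 by limma).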

How the data were processed

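The authors deposited scanner output for 14 one-colour Agilent arrays as spot intensity, and the submitters' processing notes name Agilent Feature Extraction 10.5.1.1. The processed signal is background-subtracted. The authors also deposited log2 values, whose normalization is not given in the sources used here. They correlated with log2 of the same array's signal at 0.943 to 0.987, had medians of 6.20 to 6.23 and carry the same displacement. They served as an alternative, and their centring stays unknown.

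Each array was compared with the median array over shifts of up to 6 rows or columns, and the displaced arrays were moved by 2 rows, which left 328 spots of each without a value. Spots of a probe were averaged after control spots were removed, and spots flagged as outliers were removed on the well-placed arrays. On the displaced arrays flagged spots were kept, because their flags compare wrongly named spots. Log2 signal minus the array's 75th percentile over 24086 probes (well above background on all 12 well-placed arrays) was used. Before scaling, that percentile lay between 300 (Roquin san/+ C) and 4452 on the arrays. Probes well above background on at least 6 of those 12 arrays, with at least 5 values per genotype, were tested: 33120 probes, of which 280 had a missing value. Tests used limma 3.58.1 in R 4.3.3 (lmFit, eBayes, Benjamini-Hochberg adjustment over all tested probes, threshold 0.05). Files were parsed in Python 3.11.15 (pandas 2.3.3, numpy 2.4.6). A gene was its brightest tested probe. The number of arrays limits the precision.

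On data simulated for this comparison with 32840 probes, 34% of 100 probes changed by log2 1 and 71% of 100 changed by log2 2 were recovered, with 7 false calls. The simulated noise was drawn independently for each probe and array. It held no array-wide shifts, slide effects or displaced arrays, so recovery on the real arrays may differ. The genes and lists were chosen with earlier results of these data known. The genes named are all 8 members, the 3 genes of the partner and neighbour lists with the smallest p, the 10 genes closest to the GIMAP profile, and list markers. Gabarapl2, Bcl2 and Mcl1 were named after their values were seen. Alternatives covered background correction (normexp, offset 50), quantile scaling, the percentile's probes, filters, slide, replicate letter, the authors' values, array weights, deposited names, the mean of a gene's probes and leaving out arrays. Whether letters pair the arrays was not settled: deviations of same-lettered arrays correlated at -0.28 to 0.41, and differently lettered arrays were not compared.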

Additional observations from a re-analysis of the deposited data

Results flagged for a closer look

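In 26 groups of 6 or 7 arrays (the 12 probes and the mean of the GIMAP genes, in each genotype) the lowest and highest array were set against the rest, where chance singles out about 1 group in 20. Wild-type replicate C stood apart in 2 of them. Gimap3 (A_55_P2003221) was 3.92 on it, where the other wild-type arrays had 4.45 to 4.85, a gap of 0.572 of the range, just past the 95% critical value of Dixon's test. The mean deviation of the GIMAP genes was -0.88 on it, against -0.18 to 0.28, a gap of 0.602 of the range. Without this array the median difference of the 8 genes was 0.04 in place of 0.17, and 4 of 8 were higher in Roquin san/+ arrays.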

How the results depend on the processing

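No GIMAP, partner or neighbour gene, and no probe, passed the adjusted threshold under any of the 30 alternative settings, while 55 to 3275 probes had an unadjusted p under 0.05. The median difference of the 8 genes ranged from -0.15 on slide 1 alone to 0.36 on slide 2 alone, and was 0.28 with the authors' values. The median of all probes moved too, to 0.21 with normexp, -0.08 with quantile scaling and 0.34 without a filter. Relative to it 4, 8 and 2 of the 8 genes were higher. With the replicate block (letters taken as pairs) the median was 0.17 and 0 genes were called, and the block changed no call. The lowest adjusted p of a GIMAP gene was 0.461 by limma, for Gimap7 under array weights (unadjusted p = 0.0236). Its lowest unadjusted p was 0.0120 by limma, without Roquin san/+ replicate C (difference 0.56, adjusted p = 0.9997).

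Of 240 gene values under alternatives, 24 had the opposite sign. With normexp Gimap6 was -0.030. With the percentile over all probes Gimap1 was -0.053, Gimap3 -0.10, Gimap6 -0.071 and Gimap9 -0.030. With slide as a block Gimap1 was -0.0077. On slide 1 alone Gimap1 was -0.28, Gimap3 -0.11, Gimap4 -0.41, Gimap6 -0.20 and Gimap9 -0.18. With the deposited names, which put other probes' signals under GIMAP names on 2 arrays, Gimap1 was -0.033, Gimap3 -0.083 and Gimap5 -0.051. Leaving out single arrays gave -0.10 to 0.18 for Gimap1, -0.086 to 0.13 for Gimap3, -0.042 to 0.14 for Gimap6 and -0.027 to 0.15 for Gimap9. Leaving out wild-type replicate C turned the sign of all 4, Roquin san/+ A or E that of Gimap3 and Gimap6, and Roquin san/+ D or G that of Gimap3, while Gimap4 (0.11 to 0.41), Gimap5 (0.11 to 0.43), Gimap7 (0.30 to 0.56) and Gimap8 (0.25 to 0.49) kept theirs. The cause was not tested. Chosen after seeing the data, leaving out Roquin san/+ replicate F and both displaced arrays gave a median of 0.20, and scaling on the T-cell genes gave 0.36.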
